A study of Hipposideros armiger with 2 samples.

Results

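The genes described here are 10 genes of hepatic glucose production and glycogen storage: PC, PCK1, PCK2, FBP1, G6PC, SLC37A4, SLC2A2, GYS2, PYGL and PPP1R3C. They were taken by name from a list of the pathway, which was drawn up with earlier results of these data known, and all 10 were found among the 12783 distinct gene names of the series, in 31 assembled genes. The libraries came from 2 wild-type great Himalayan leaf-nosed bats (Hipposideros armiger) labelled as liver, as exposed to heavy metals and as CW, the cave at Chunwan City; the design text describes adult males caught in mist-nets, and only replicate 2 carries sex and age labels. They form 1 group, replicates 1 and 2, with no unexposed animals or animals of the other cave analysed here. The question that can be asked of them is at what level the genes were present and how far the 2 libraries differed.

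In gluconeogenesis, liver and kidney make glucose from lactate, amino acids and glycerol. Pyruvate is carboxylated in mitochondria, oxaloacetate is converted to phosphoenolpyruvate, fructose bisphosphate is dephosphorylated, and glucose 6-phosphate is moved into the endoplasmic reticulum and hydrolysed there, after which glucose leaves the cell through a transporter. Glycogen is built by glycogen synthase and opened by glycogen phosphorylase, and protein phosphatase 1 is brought to the glycogen particle by targeting subunits; liver and muscle use different isozymes for several of these steps.

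The libraries held 18741210 and 18778331 expected counts, that is, read counts estimated per assembled gene. The labelled tissue was checked against markers. All 20 hepatocyte markers were found, and they summed to 18516 TPM (a share of transcripts that takes their length into account) in replicate 1 and 635 TPM in replicate 2; all 20 reached 10 TPM in replicate 1 and 9 did in replicate 2. The 12 lung and airway epithelium markers summed to 12453 and 19818 TPM, led by SCGB3A1 and SFTPC, and the 10 muscle markers to 663 and 729 TPM. Of 10 markers of kidney tubule, the other main gluconeogenic tissue, 4 had an assembled gene of their name. They summed to 46.1 and 74.6 TPM, with LRP2 at 21.8 and 54.7 TPM, SLC5A2 at 8.04 and 19.6 TPM and SLC22A6 at 16.2 and 0.22 TPM. In counts LRP2 (498 and 686) and SLC5A2 (75 and 105) differed less than in TPM, and SLC22A6 had 478 and 6. Intestinal markers summed to 45.9 and 4.89 TPM, of which APOA4 gave 40.0 and 2.69 TPM, and SI had a count of 0 in both. Adipocyte markers summed to 227 and 326 TPM, of which FABP4 gave 172 and 258 TPM. They did not move together: CIDEC was at 19.7 and 3.32 TPM, PLIN1 at 16.3 and 37.3 TPM and ADIPOQ at 2.14 and 6.42 TPM. The part that these markers play in the values below was not tested. In tissue RNA, fewer cells of a type and less RNA per cell cannot be told apart.

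The 10 genes together took 20012 counts in replicate 1, or 0.107% of the library (Wilson 95% interval 0.105% to 0.108%), and 6085 counts in replicate 2, or 0.0324% (0.0316% to 0.0332%). Their summed level was 1126 and 177 TPM (651 ± 672, mean ± SD, n = 2). Most of that difference in summed TPM was PCK1, of which 1 assembled gene of length 247 gave 521 and 10.2 TPM. By its assembled gene with most counts PCK1 was at 120 and 5.31 TPM. At least 10 TPM was reached by 7 of the genes in replicate 1 and by 5 in replicate 2.

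**Figure D1:**
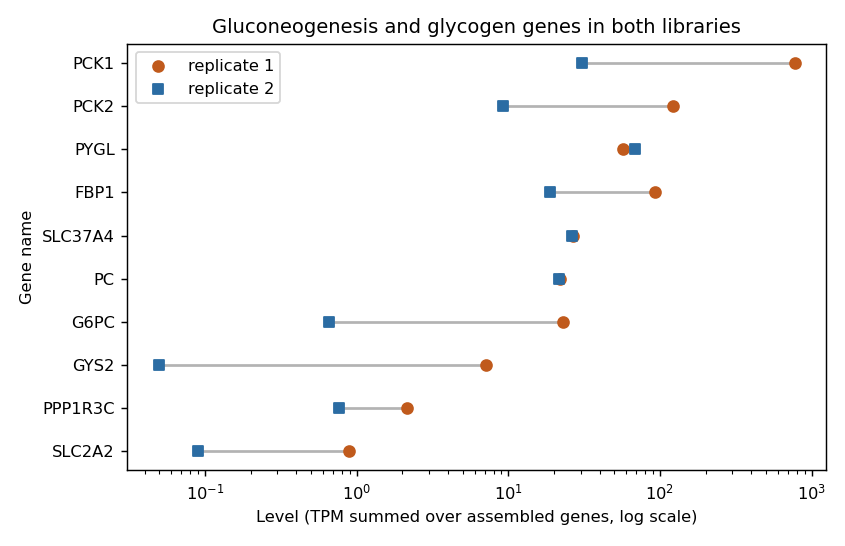
Level of each of the 10 genes in TPM (horizontal log axis), summed over the assembled genes of the name, with 1 point per library joined by a line. PYGL, SLC37A4 and PC lie close together in both libraries, whereas PCK1 runs from 772 TPM in replicate 1 to 30.6 TPM in replicate 2.

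On the path from pyruvate to phosphoenolpyruvate, the gene of the first step lay within 2-fold between libraries and those of the second did not. PC, the biotin-dependent mitochondrial pyruvate carboxylase, had 21.8 and 21.5 TPM in replicates 1 and 2 (21.6 ± 0.23). On scaled counts its log2 ratio of replicate 2 over replicate 1 was -0.67 (1081 and 805 counts), so it stayed within 2-fold. Here and below this ratio is taken on log2(CPM + 1), CPM being a library's counts put on a common total after TMM scaling, with the median of all gene names set to 0. PCK1, the cytosolic phosphoenolpyruvate carboxykinase that commits oxaloacetate to glucose synthesis, was at 772 and 30.6 TPM. It had 8001 and 532 counts, a log2 ratio of -4.12. PCK2, the mitochondrial form of the same enzyme, was at 122 and 9.28 TPM, with 2898 and 306 counts and a log2 ratio of -3.42. Both carboxykinases were therefore high in replicate 1 and low in replicate 2. The summed level of PCK1 was 6.33 times that of PCK2 in replicate 1 and 3.30 times in replicate 2. By the assembled gene with most counts of each name PCK1 was higher only in replicate 1 (120 against 47.6 TPM), while in replicate 2 it was at 5.31 against 5.61 TPM.

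The hydrolytic steps were also lower in replicate 2. FBP1, the liver fructose-1,6-bisphosphatase, was at 93.4 and 18.8 TPM, from 3118 and 438 counts, with a log2 ratio of -3.04. G6PC, the catalytic subunit of glucose-6-phosphatase that releases free glucose, was at 22.8 and 0.66 TPM. Its 858 and 30 counts gave a log2 ratio of -4.37, the lowest of the 10 on this scale; with a pseudocount of 0.1 CPM GYS2 was lower (-5.64 against -5.01), and on TPM PCK1 was (-4.94 against -4.17), as it was by the assembled gene with most counts (-4.79 against -4.38). Without a pseudocount this was 34.3-fold lower in replicate 2, with an exact binomial 95% interval of 23.8 to 51.1 that covers counting error only.

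The transporters on either side of that hydrolysis did not share one pattern. SLC37A4, which carries glucose 6-phosphate into the endoplasmic reticulum for G6PC, was at 26.8 and 26.4 TPM (26.6 ± 0.27), with 1081 and 1038 counts and a log2 ratio of -0.31. The level of SLC37A4 was thus 1.18 times that of G6PC in replicate 1 and 40.0 times in replicate 2. SLC2A2, the facilitated glucose transporter GLUT2 of the hepatocyte membrane, was the lowest of the 10 genes, at 0.89 and 0.09 TPM. It had 53 and 4 counts and a log2 ratio of -1.77. With so few counts the pseudocount shortens the ratio: without it SLC2A2 was 15.9-fold lower in replicate 2, with a counting interval of 5.85 to 60.5.

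In glycogen metabolism the synthase and the phosphorylase differed between libraries by very different amounts. GYS2, the liver isozyme of glycogen synthase, was at 7.14 and 0.05 TPM, from 167 and 2 counts. Its log2 ratio was -3.28 on log2(CPM + 1), and without the pseudocount GYS2 was 100.1-fold lower in replicate 2, with a counting interval of 27.3 to 834. PPP1R3C, a subunit that targets protein phosphatase 1 to glycogen, was at 2.14 and 0.77 TPM, from 125 and 40 counts, with a log2 ratio of -1.49. PYGL, the liver isozyme of glycogen phosphorylase, was at 57.3 and 68.5 TPM (62.9 ± 7.93). Its 2630 and 2890 counts gave a log2 ratio of -0.13, the nearest to 0 of the 10. The sign for PYGL depends on the scale: it was the only one of the 10 with the higher TPM in replicate 2, and on log2(TPM + 1) the median of all names lay at 0.33. Less that median, its TPM ratio was -0.08.

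In total 7 of the 10 genes were more than 2-fold lower in replicate 2, 3 (PC, SLC37A4 and PYGL) lay within 2-fold, and 0 were more than 2-fold higher. Of the 11290 gene names that averaged 1 CPM or more, 5.16% were more than 2-fold lower and 0.0266% more than 2-fold higher. Over 4-fold lower were 5 of the 10 (PCK1, PCK2, G6PC, FBP1 and GYS2), against 2.67% of all names, and over 16-fold lower were 2 (PCK1 and G6PC), against 0.93%. The median log2 ratio of the 10 was -2.40, against 0 for all names by construction. GYS2 and SLC2A2 reached 1 CPM only in replicate 1, so passing the level filter already required that library to be high. With a filter at a mean of 10 CPM these 2 and PPP1R3C drop out, and 4 of 7 were over 2-fold lower. The share of all names was not taken at that filter. These are ratios of 1 library to 1 library with no replicate check, and no p-value was computed.

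The hepatocyte markers were over 2-fold lower in 20 of 20 cases, with a median log2 ratio of -4.47 and a range of -5.73 (APOE) to -1.51 (TF). TF stood apart on this count scale, and the other 19 markers ended at -3.84. On TPM it did not: TF was at 102 and 9.36 TPM, whereas CYP2E1 (-4.13 on counts) was at 118 and 58.3 TPM. The range without TF therefore holds for counts only. On log2(CPM + 1), 6 of the 10 genes fell inside the whole range (G6PC, PCK1, PCK2, GYS2, FBP1 and SLC2A2), and 2, G6PC and PCK1, inside the range without TF. PC, SLC37A4, PYGL and PPP1R3C, at -1.49, lay above both. For GYS2 and PPP1R3C this placing depends on the pseudocount. Without it GYS2 was at -6.65, below APOE at -5.77, but its counting interval of -9.7 to -4.77 includes that value. SLC2A2 was then at -3.99 (interval -5.92 to -2.55), near FGB at -4.05. PPP1R3C was at -1.91, below TF at -1.71. The tested lung and airway markers had log2 ratios between 0.10 and 0.29.

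**Figure D2:**
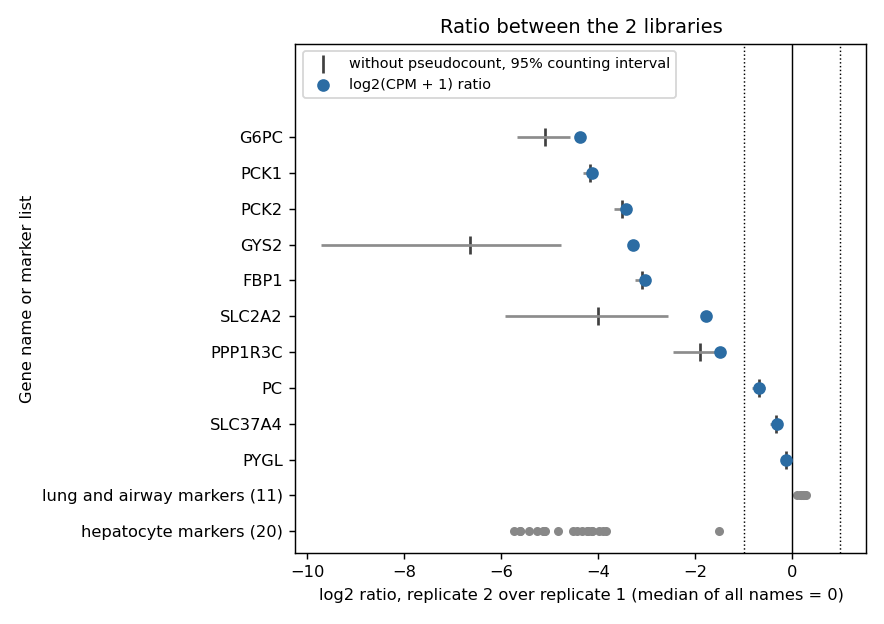
Log2 ratio of replicate 2 over replicate 1 for each of the 10 genes (filled circles, log2(CPM + 1), median of all names at 0), with the ratio without pseudocount and its 95% counting interval (tick and bar), and below them the single hepatocyte and lung or airway markers (grey); dotted lines mark 2-fold. PYGL, SLC37A4 and PC lie between the dotted lines, while the wide bars of GYS2 and SLC2A2 come from 2 and 4 counts in replicate 2.

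Ordered by mean level, the genes ran from PCK1 (401 ± 524 TPM) through PCK2 (65.6 ± 79.7), PYGL, FBP1 (56.1 ± 52.8), SLC37A4, PC, G6PC (11.7 ± 15.7), GYS2 (3.60 ± 5.01) and PPP1R3C (1.46 ± 0.97) to SLC2A2 (0.49 ± 0.57). Of the 9 neighbouring pairs in this order, only SLC37A4 and PC differed by more than the larger SD of the pair (4.99 against 0.27 TPM). The order was not the same in each library. In replicate 1 PCK1 was the highest, followed by PCK2 and FBP1. In replicate 2 PYGL was the highest, and PCK1, SLC37A4 and PC followed. These are levels summed over assembled genes. By the assembled gene with most counts, replicate 1 ran PCK1 (120 TPM), FBP1 (93.4), PYGL (47.8) and PCK2 (47.6), and replicate 2 ran PYGL (63.3), SLC37A4 (26.4), FBP1 (18.8), PC (8.44), PCK2 (5.61) and PCK1 (5.31).

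For several of these steps the data also hold a related gene, which can be set beside the gene described above in each library. Those with a wider tissue range than the liver form are G6PC3, GYS1 and SLC2A1. G6PC3, the ubiquitous glucose-6-phosphatase, was at 13.7 and 21.9 TPM. G6PC was thus 1.67 times G6PC3 in replicate 1, whereas G6PC3 was 33.2 times G6PC in replicate 2. GYS1, the muscle glycogen synthase that most tissues use, was at 8.45 and 13.5 TPM, near GYS2 in replicate 1 (1.18 times) and far above it in replicate 2, where GYS2 rested on 2 counts. SLC2A1, the widely expressed glucose transporter GLUT1, was at 5.51 and 7.27 TPM, above SLC2A2 in both libraries. The phosphorylases differed from this: PYGM, the muscle isozyme, was at 15.4 and 23.5 TPM and PYGB, the brain isozyme, at 9.15 and 16.3 TPM, so that PYGL was the highest of these forms in each library, at 3.72 and 2.91 times PYGM. PPP1R3B, another glycogen-targeting subunit known from liver, was at 2.13 and 2.03 TPM beside PPP1R3C. The log2 ratios of the counterparts were 0.19 for G6PC3, 0.18 for GYS1, 0.09 for PYGM, 0.16 for PYGB, -0.03 for SLC2A1 and -0.46 for PPP1R3B, all within 2-fold. G6PC2 and FBP2 were not matched by name.

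**Figure D3:**
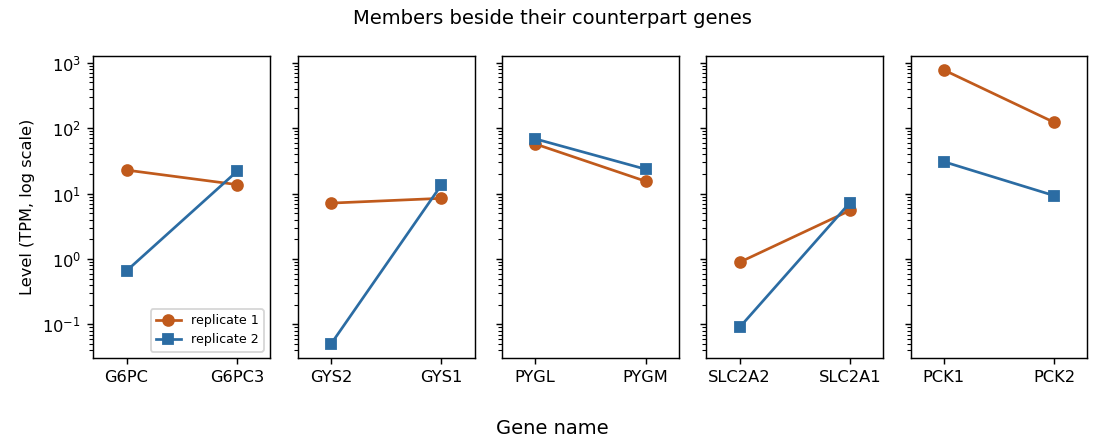
Level in TPM (vertical log axis) of 5 of the genes (left of each panel) and of a related gene (right), with 1 line per library. The lines for G6PC, GYS2 and SLC2A2 separate on the left and come together on the right, those of PYGL and PYGM stay close throughout, and those of PCK1 and PCK2 lie apart on both sides.

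The measured features are assembled genes, and a name can cover several of them. FBP1, G6PC, SLC37A4, SLC2A2, GYS2 and PPP1R3C each had 1 assembled gene, with listed lengths from 1625 to 4086. PCK1 and PC had 7 each, PYGL had 8 and PCK2 had 3, and 18 of the 31 were shorter than 1000. Of the 31, 19 had a mean of at least 1 CPM. More than 2-fold lower in replicate 2 were 11 of these, and 1 was more than 2-fold higher. Of all 22025 tested assembled genes, 6.81% were lower and 0.0999% higher by that measure. The 11 include 4 of PCK1 and 2 of PCK2, so they are not separate genes. Among them GYS2, SLC2A2 and the PCK2 form of length 241 reached 1 CPM only in replicate 1. So did the PCK1 forms of lengths 247, 436 and 233. All of these passed the level filter through the library in which they were high.

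PCK1 shows how far a level can rest on a fragment. An assembled gene of length 247 gave 521 of its 772 TPM in replicate 1 from 629 of its 8001 counts, whereas the assembled gene with most counts, of length 2603, gave 120 TPM from 6863 counts. In replicate 2 these were at 10.2 and 5.31 TPM, from 11 and 279 counts. On that longest form alone the log2 ratio of PCK1 was -4.79, against -4.12 for the sum. For the 10 genes together, counting only the assembled gene with most counts per name lowered the mean summed level from 651 to 254 TPM.

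The PCK1 name also joined assembled genes with unlike ratios. There were 4 over 2-fold lower in replicate 2, with 7802 and 304 counts in sum, and 3 within 2-fold, with 199 and 228 counts. The largest of the 3, of length 2581 and with a best match to the mouse protein, had 167 and 204 counts and a log2 ratio of 0.02. It made up 2.09% of PCK1 counts in replicate 1 and 38.3% in replicate 2. A best match to a protein does not show from which species, or from which gene copy, a transcript came, and this was not tested. The main PCK1 and PCK2 assembled genes, of lengths 2603 and 2618, belong to the same cluster of the assembly, so reads of these related enzymes may have been shared between them and both values are uncertain to that extent. The PCK2 form of length 2618 held 96.4% and 98.4% of PCK2 counts, with a log2 ratio of -3.40. In TPM it gave 39.0% and 60.5% of the summed PCK2 level. A fragment of length 241 gave 53.3% of that level in replicate 1, from 73 counts, and 32.3% in replicate 2. The summed PCK2 level in replicate 1, and the mean and the ratio of PCK1 to PCK2 that use it, therefore depend on that fragment.

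For PC the main assembled gene, of length 4135, had 1006 and 706 counts and a log2 ratio of -0.77. A second, of length 1712 with a best match to the mouse protein, had 22 and 76 counts and a log2 ratio of 1.04, the only one of the 19 tested that was over 2-fold higher in replicate 2. The near equality of PC in TPM also rests on a fragment: 1 assembled gene of length 323 gave 35.0% of its TPM in replicate 2 from 16 counts. PYGL was simpler, with 97.7% and 98.4% of its counts in 1 assembled gene of length 3042 (2570 and 2844 counts).

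**Figure D4:**
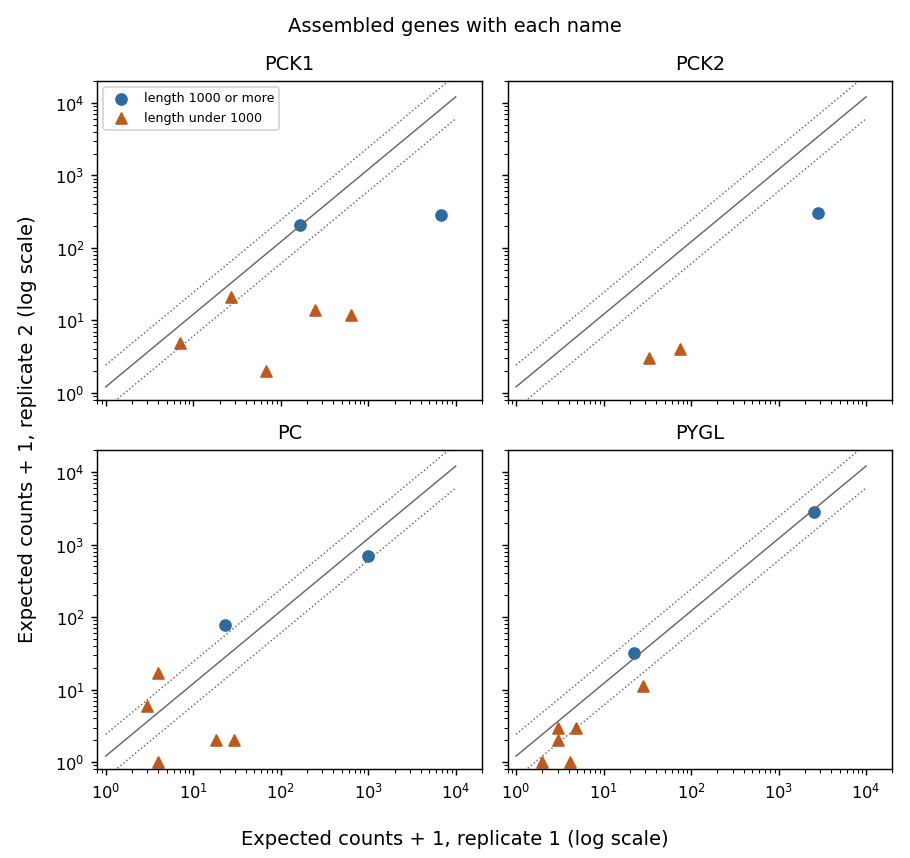
Expected counts + 1 of every assembled gene named PCK1, PCK2, PC or PYGL in replicate 1 (horizontal) and replicate 2 (vertical), both on log axes, by listed length; the solid line marks equal TMM-scaled level and the dotted lines 2-fold. The PCK1 panel has points on the solid line and points far below it, all PCK2 points lie below the dotted lines, and the main PYGL point lies by the solid line.

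Of 85 further genes of glucose and glycogen metabolism found from 8 lists, 77 were tested; 17 of these (22.1%) were lower by more than 2-fold in replicate 2, against 5.16% of all names, and 0 were higher by that much. Of the 17, 4 (HNF4A, ONECUT1, PKLR and STBD1) reached 1 CPM only in replicate 1. They therefore passed the level filter through the library in which they were high. The share of 5.16% of all names also applies to the counts of single lists below, which rest on few genes each. The enzymes of the reversible steps, which gluconeogenesis shares with glycolysis, centred on a log2 ratio of -0.76 (median), and 3 of 10 tested were over 2-fold lower. These were the enolase ENO1 (302 and 196 TPM, -1.22), the dehydrogenase GAPDH (1261 and 535 TPM, -1.11) and the phosphoglycerate kinase PGK1 (-1.15), named after its value was seen. The triose phosphate isomerase TPI1 was at 161 and 115 TPM (-0.97). ALDOA, the aldolase of muscle and most other tissues, was at 485 and 657 TPM (-0.08).

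For genes that feed carbon into the pathway the median was -0.73, and 6 of 17 were over 2-fold lower. Those on amino acid routes showed the largest differences: SDS, which turns serine into pyruvate, was at 34.1 and 0.77 TPM (-4.96), the alanine aminotransferase GPT at 257 and 10.3 TPM (-3.82), the tyrosine aminotransferase TAT at 306 and 19.6 TPM (-3.71) and the cytosolic aspartate aminotransferase GOT1 at 88.3 and 17.1 TPM (-3.27). Their mitochondrial counterparts GPT2 (0.13) and GOT2 (-0.31) lay within 2-fold. Also over 2-fold lower were MPC1 of the mitochondrial pyruvate carrier (-1.37) and the malate dehydrogenase MDH1 (-1.04). MDH2, the mitochondrial malate dehydrogenase (-0.55), and LDHA, which interconverts lactate and pyruvate and was at 134 and 108 TPM (-0.76), lay within 2-fold. Of these, GOT1, GPT2, GOT2, MPC1 and LDHA were named after their values were seen.

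The glycogen lists lay nearer to 0. Of genes for glycogen synthesis and branching, 1 of 6 was over 2-fold lower, PGM1, which interconverts glucose phosphates (33.3 and 9.55 TPM, -1.31); GYG1, the protein primer of glycogen, was at 20.7 and 32.2 TPM (0.23), and UGP2, which makes UDP-glucose, had a log2 ratio of -0.77. Of genes for glycogen breakdown 1 of 9 was, STBD1, a glycogen-binding protein (1.95 and 0.52 TPM, -1.23), while the phosphorylase kinase subunit PHKG2 was at 33.7 and 36.1 TPM (0.11) and the lysosomal glucosidase GAA at 17.9 and 23.7 TPM (0.12). Of phosphatase and kinase genes 1 of 8 was, PPP1R3G, a glycogen-targeting subunit (6.11 and 0.69 TPM, -1.22); the catalytic subunits PPP1CA, PPP1CB and PPP1CC had log2 ratios of -0.13, 0.14 and -0.08, and the glycogen synthase kinase GSK3A one of -0.10.

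Among receptors and regulators of the pathway, 3 of 15 tested genes were over 2-fold lower, and their median was -0.16. These 3 were the glucagon receptor GCGR (27.3 and 1.65 TPM, -3.13), the hepatocyte transcription factor HNF4A (16.9 and 0.71 TPM, -4.01) and ONECUT1, another liver transcription factor (9.68 and 0.04 TPM, from 428 and 3 counts, -4.50). The insulin receptor INSR, by contrast, was at 11.8 and 17.0 TPM (0.04), the insulin-signalling kinase AKT2 at 49.7 and 54.9 TPM (-0.03), and CEBPB and FOXO1, transcription factors that act on PCK1 and G6PC, at 51.9 and 58.6 TPM (-0.15) and at 12.2 and 15.4 TPM (-0.19). The glucocorticoid-responsive factor KLF15 had a log2 ratio of -0.38. HNF4A, INSR and FOXO1 were named after their values were seen. Among enzymes and transporters that take up or break down glucose, 2 of 11 were over 2-fold lower: PKLR, the liver pyruvate kinase (1.34 and 0.13 TPM, from 86 and 3 counts, -2.39), and PFKFB1 (-1.08), an enzyme that sets fructose 2,6-bisphosphate and was named after its value was seen. PKM, the pyruvate kinase of most other tissues, was at 108 and 153 TPM (0.14), and SLC2A4, the insulin-responsive glucose transporter, at 13.2 and 18.3 TPM (0.05). The names PPARGC1A and CREB1 were not matched.

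**Figure D5:**
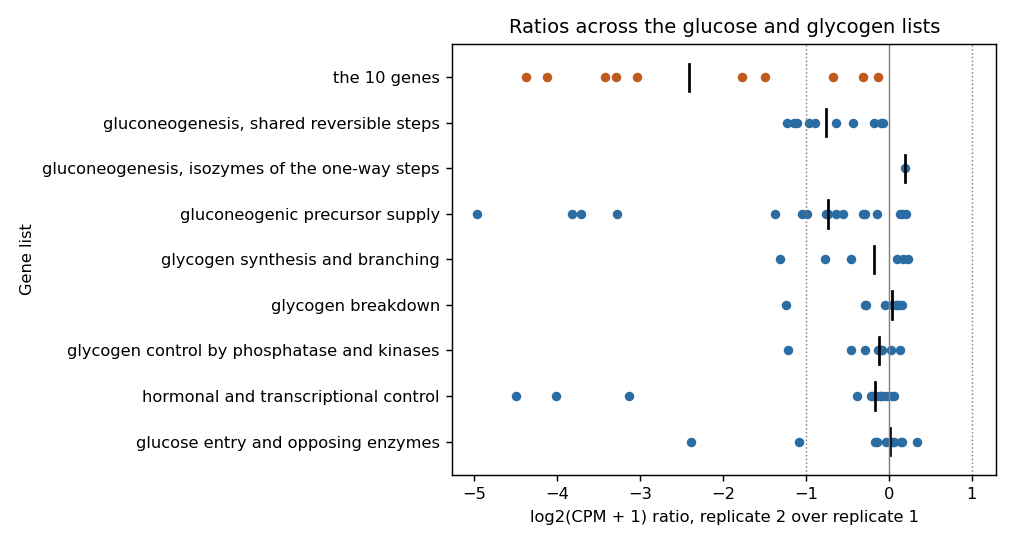
Log2(CPM + 1) ratio of replicate 2 over replicate 1 for the 10 genes (orange) and for the tested members of the 8 further lists (blue), with list medians as black bars and 2-fold as dotted lines. The points far to the left include SDS at -4.96 and ONECUT1 at -4.50, and no point passes the right dotted line.

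The names nearest to each gene, by Euclidean distance between the pairs of log2(TPM + 1) values over the 2 libraries, were taken as a description of likeness. For PCK1 they were TTC36 (distance 0.23) and ASS1 (0.39), for PCK2 FGB (0.08) and ACOT13 (0.11), for FBP1 SEC14L2 (0.11) and GOT1 (0.15), and for G6PC OTC (0.03) and ABAT (0.04). For SLC37A4 they were LARS and WASF2 (0.01 each), for PYGL SF3B1 (0.01) and DNAJC7 (0.03), and for PC ACSL4 and TMEM97 (0.03 each). For GYS2 they were CYP2C1 and BCL2L15 (0.07 each), both listed at 0 TPM in replicate 2. With 2 libraries such a distance rests on 2 values per gene. These values are summed over assembled genes. In replicate 1 fragments of lengths 247 and 241 gave 67.5% of the PCK1 and 53.3% of the PCK2 level, so the names nearest to these 2 genes depend on fragments.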

How the data were processed

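RNA extracted from tissue labelled liver was poly(A)-selected and sequenced, per the labels' protocols. The submitters' processing notes name cutadapt 1.9 and, for replicate 1 only, the mouse build mm10; its role, the assembler version and the quantifier are not given in the sources used here. The authors deposited 1 table per library with 55378 Trinity assembled genes and, per the file headers, expected counts. The second deposited column has no unit in its header and was taken to be TPM because its totals were 996837 and 996239. Names are the best Swiss-Prot matches in the deposited tables; 8 of the 10 are RefSeq symbols of the bat assembly ASM189008v1.

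Values were summed over assembled genes of 1 upper-cased name, and summed counts were rounded. TMM factors (0.9096 and 1.0993) came from edgeR 4.0.16 in R 4.3.3, over all assembled genes. Log2 ratios used CPM + 1 and names averaging 1 CPM or more, less their median (-0.01). The ratio step was tried on simulated counts, with library totals in place of TMM factors and with as many names raised as lowered. That trial does not cover TMM scaling, a one-sided difference such as the one here, or names as low as SLC2A2. Alternatives were a pseudocount of 0.1, library size scaling, DESeq2 1.42.0 size factors, other filters, deposited TPM, and the assembled gene with most counts only; scaling with no median removed was added after seeing the data. The design gives 1 group of 2 libraries, so no test was run. A count of 3, the detection floor, is 0.18 and 0.15 CPM. Both this floor and the intervals reflect counting error alone: PCR copies were not told apart by molecular identifiers. The genes, lists and rules were chosen with earlier results of these data known, and some genes of the lists are not reported here. Besides the 10 genes, the text names up to 4 highest members of a list and the one with the largest ratio, the 2 highest markers of a list, and the 2 nearest names; the isozymes, the other markers and further list members were chosen after their values were seen. Other software was scipy 1.17.1, pandas 2.3.3, numpy 2.4.6 and matplotlib 3.10.9 under Python 3.11.15.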

Additional observations from a re-analysis of the deposited data

How the results depend on the processing

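The count of the 10 genes over 2-fold lower in replicate 2 was 7 and stayed at 7 with a pseudocount of 0.1 CPM, library size scaling, DESeq2 size factors, no filter, the assembled gene with most counts only, and no median removed. It was 6 of 9 on deposited TPM, where SLC2A2 missed the filter, and 4 of 7 with the filter at 10 CPM, which leaves fewer genes. Of all names, 12326 and 7556 were tested at these 2 settings, against 11290. The share of all names over 2-fold lower was taken at the main setting only (5.16%), so the counts at other settings have none beside them. Their median log2 ratio of -2.40 went to -3.26 with a pseudocount of 0.1 CPM, -3.05 at 10 CPM and -2.59 on TPM. The smaller pseudocount moved low genes most, GYS2 to -5.64 and SLC2A2 to -3.43. With the median of all names removed, or with TMM scaling alone, no gene of the 10 changed sign; PYGL was higher in replicate 2 on TPM without that step. The summed level ranged from 177 to 1126 TPM when either replicate was left out. Genes of the further lists over 2-fold lower numbered 15 to 18 under the same settings, apart from the one on assembled genes, which was not run for them, against 17. Library size scaling moves the median of all names by 0.24, which is removed. No paired analysis was possible because the samples form 1 group. With 2 libraries the spread between animals is poorly known, and 2 to 40 counts in replicate 2 limit the ratios of GYS2, SLC2A2, G6PC and PPP1R3C.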

Other observations

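Assembled genes that share a cluster of the assembly with the 10 genes, but carry no gene name, were looked at after the data were seen. One beside GYS2, of length 624, had 136 and 2 counts (17.4 and 0.26 TPM), and one beside SLC2A2, of length 929, had 7 and 0 counts. The one beside PPP1R3C, of length 246, had 4 and 0 counts. Whether these belong to the transcripts of the named genes was not tested.

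The name PEPCK, used for phosphoenolpyruvate carboxykinase of invertebrates, was carried by 3 assembled genes outside the 10 names. Those with a best match to the nematode Haemonchus contortus had 57.6 and 63.8 counts (length 1448) and 14.4 and 7.16 counts (length 343). The other, with a best match to Drosophila melanogaster, had 13.0 and 15.9 counts and shares a cluster with 2 PCK1 assembled genes of lengths 710 and 223, whose best matches are to cow and chicken proteins and which had 26.0 and 20.2 counts and 6.04 and 3.82 counts. Their species of origin was not tested.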
